A study of Homo sapiens with 12 samples.

Results

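The miR-30 family was followed across 12 small RNA libraries from human cells that carried 1 of 3 rescued forms of DICER, which cuts miRNA hairpins into short duplexes. The members were 10 names chosen by name, the 5p arms hsa-miR-30a-5p, hsa-miR-30b-5p, hsa-miR-30c-5p, hsa-miR-30d-5p and hsa-miR-30e-5p and the 3p arms hsa-miR-30a-3p, hsa-miR-30b-3p, hsa-miR-30c-2-3p, hsa-miR-30d-3p and hsa-miR-30e-3p, written without the prefix from here on. They are 10 of the 1971 miRNA names listed in the count tables, and all 10 passed the filter on low counts in each line. Libraries were made by AQ-seq, a protocol meant to reduce the ligation bias of small RNA sequencing, from 100 µg of total RNA with 30 spike-in RNAs. The 6 groups were HEK293T cells, an embryonic kidney line, and HCT116 cells, a colorectal carcinoma line, each rescued with DICER ΔdsRBD (the double-stranded RNA-binding domain deleted, called dsRBD deletion here), with DICER AA (the labels do not say what was changed) or with DICER WT. All 3 forms within a line are rescues, the labels do not say how the endogenous DICER was removed or whether a group is 1 clone, and each group held 2 libraries. Nothing in the labels says that these came from separate cultures, so p-values measure only the spread between the libraries.

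The miR-30 family is a set of hairpins at several loci whose 5p arms share the seed, the bases that pair with target mRNAs. Its 5p arms are the usual guide strands, abundant in kidney and other epithelial tissues and known for restraining the epithelial-to-mesenchymal transition, while the 3p arms are mostly the passenger strands that are discarded after DICER cutting. The miR-30a hairpin is also the classical backbone for expressed short hairpin RNAs.

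The sequences below show which members share a seed and where reads of its members could be confused. They come from RefSeq (GRCh38.p14), whose table held 6 of the 10 members, and bases 2 to 8, the seed, are in capitals.
miR-30a-5p: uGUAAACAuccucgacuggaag
miR-30c-5p: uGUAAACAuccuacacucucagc
miR-30e-5p: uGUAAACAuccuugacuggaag
miR-30a-3p: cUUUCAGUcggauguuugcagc
miR-30e-3p: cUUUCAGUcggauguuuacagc
miR-30c-1-3p: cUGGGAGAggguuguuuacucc
miR-30c-2-3p: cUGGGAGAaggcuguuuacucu
The 3 5p arms shown share the seed GUAAACA, and miR-30c-5p is identical to miR-30a-5p and miR-30e-5p over the first 12 bases. Counted from 1 at the 5′ end, miR-30a-5p differs from miR-30e-5p at 1 of 22 bases (C13U), and miR-30a-3p from miR-30e-3p at 1 of 22 bases (G18A). The 3p arms fall into different seeds, UUUCAGU for miR-30a-3p and miR-30e-3p and UGGGAGA for both miR-30c 3p arms. miR-30c-1-3p differs from miR-30c-2-3p at 3 bases (G9A, U12C and C22U). The sources used here do not say how a read that fits more than 1 name was counted, so miR-30a and miR-30e may share reads on either arm.

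The annotated hairpin sequences, which extend beyond the mature arms at both ends, are shown with both arms in capitals, because the results turn on the balance between the arms.
MIR30A: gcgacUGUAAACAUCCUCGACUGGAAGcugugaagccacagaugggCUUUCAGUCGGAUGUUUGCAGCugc
MIR30E: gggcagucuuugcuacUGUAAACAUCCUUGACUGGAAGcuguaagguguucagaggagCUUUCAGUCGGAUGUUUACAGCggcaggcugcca
MIR30C1: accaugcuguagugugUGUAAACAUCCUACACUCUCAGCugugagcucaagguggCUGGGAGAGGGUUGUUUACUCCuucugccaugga
MIR30C2: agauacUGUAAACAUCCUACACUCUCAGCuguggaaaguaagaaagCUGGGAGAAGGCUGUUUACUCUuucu
MIR30A lies at chr6:71403551-71403621 and MIR30C2 at chr6:71376960-71377031, both on the minus strand in introns of the long noncoding RNA genes LINC00472 and AL136164.2. MIR30E lies at chr1:40754355-40754446 and MIR30C1 at chr1:40757284-40757372, both on the plus strand in introns of NFYC, which encodes a subunit of the NF-Y transcription factor. Between the annotated arms there are 19 bases in MIR30A, 20 in MIR30E, 16 in MIR30C1 and 17 in MIR30C2. Because miR-30c-5p is made from both MIR30C1 and MIR30C2, its reads cannot be assigned to a hairpin, while miR-30c-1-3p and miR-30c-2-3p each mark 1 hairpin.

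The libraries held 824987 to 4498886 miRNA reads, with the fewest in the dsRBD deletion libraries of each line. Levels are given as CPM, the usual unit of read counts scaled to library size, with TMM applied within each line, a factor that holds the bulk of names level between libraries. Tests of levels between the lines used TMM computed anew over all 12 libraries. Such a line difference need not equal the difference of the 2 within-line values. Marker miRNAs of the labelled lines and of other cell types were summed over the listed names. In HEK293T the 3 markers of renal and HOX-expressing lines summed to 73900 to 78100 CPM with the dsRBD deletion, 121000 to 125000 CPM with AA and 71800 to 89100 CPM with WT. The same 3 markers summed in HCT116 to 14600 to 17600 CPM with the deletion, 9330 to 9910 CPM with AA and 8450 to 9060 CPM with WT. The 5 intestinal epithelial markers summed to 3140 to 3160 CPM with the deletion, 3080 to 3100 CPM with AA and 1950 to 2230 CPM with WT in HEK293T, and in the colorectal line HCT116 to 456 to 465 CPM with the deletion, 550 to 573 CPM with AA and 545 to 574 CPM with WT. No marker of these lists was at 0. The 5 blood cell markers summed to 14.1 to 21.4 CPM with the deletion, 15.1 to 17 CPM with AA and 24.1 to 24.6 CPM with WT in HEK293T, where miR-223-3p was at 0 in 2 of 6 libraries and miR-142-5p and miR-150-5p in 1 each. In HCT116 they summed to 139 to 191 CPM with the deletion, 512 to 527 CPM with AA and 518 to 521 CPM with WT. The 3 neural markers summed to 3260 to 3450 CPM with the deletion, 6650 to 6860 CPM with AA and 5660 to 6440 CPM with WT in HEK293T. In HCT116 they summed to 1400 to 1610 CPM with the deletion, 2860 to 2900 CPM with AA and 2710 to 2970 CPM with WT, and miR-124-3p was at 0 in 1 library. The liver marker stayed between 0.292 and 14.5 CPM and the 2 listed muscle markers between 0.587 and 7.02 CPM, with miR-1-3p at 0 in 3 HCT116 libraries. These markers are DICER products themselves and moved with the DICER form, and their part in the results was not tested. The HEK293T WT libraries differed from each other for several members (miR-30e-3p was at 1658 and 2560 CPM), so calls that rest on 1 of them are named.

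Removing the dsRBD was accompanied by a split among the 5p guide strands on the TMM scale. In HEK293T cells miR-30a-5p, miR-30b-5p and miR-30c-5p fell by 2.49-fold or more on that scale while miR-30d-5p and miR-30e-5p did not pass the test, though both were called lower on the spike-in scale. In HCT116 cells these 3 names and miR-30e-5p fell and miR-30d-5p rose on the TMM scale, where miR-30d-5p was lower on the spike-in scale and miR-30e-5p was at 0.13 with library totals alone. A change was called at an adjusted p below 0.05 in edgeR's quasi-likelihood test, with Benjamini-Hochberg adjustment over all names tested in the line. By that rule 75.6% of 626 names were called in HEK293T and 62.1% of 795 in HCT116, so a call alone does not set the family apart. Fewer cells that make a miRNA and less of it per cell cannot be told apart in bulk libraries.

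miR-30a-5p, known to repress the autophagy gene BECN1, had 974 and 980 CPM in the HEK293T dsRBD deletion libraries, against 10050 and 13660 CPM in WT libraries. Both deletion libraries lay far below both WT libraries, and the name fell 12.1-fold (log2 −3.60 ± 0.20 SE, adjusted p = 7.2e-08), the largest fall among the 10 members. Leaving out each library in turn gave −3.84 to −3.36. HCT116 libraries had 2113 and 1822 CPM with the deletion, against 3853 and 4162 CPM with WT. The groups did not overlap there either, and the fall was 2.04-fold (log2 −1.03 ± 0.12, adjusted p = 3.2e-05). The difference between the lines was tested over all 12 libraries, with TMM computed over all of them. It was −2.29 ± 0.27 on the log2 scale (HEK293T minus HCT116, adjusted p = 7.5e-07).

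miR-30c-5p, known in liver for repressing the lipoprotein assembly gene MTTP, had 2201 and 2118 CPM in HEK293T dsRBD deletion libraries, against 11990 and 11080 CPM in WT libraries. The HCT116 values were 3389 and 2861 CPM with the deletion, against 10400 and 10330 CPM with WT. The groups were clearly apart in both lines. The falls were 5.34-fold in HEK293T (log2 −2.42 ± 0.19, adjusted p = 6.8e-07) and 3.32-fold in HCT116 (log2 −1.73 ± 0.12, adjusted p = 5.3e-07). With TMM computed over all 12 libraries, the line difference was −0.38 ± 0.25, not the difference of these 2 values, and did not pass (adjusted p = 0.26). It did under 5 other settings, at −0.67 with DESeq2 size factors (adjusted p = 0.013), −1.1 with library totals (0.00031), −0.69 under upper-quartile scaling (0.019), −0.71 without the filter on low counts (0.04) and −0.67 by DESeq2's Wald test (0.0077).

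miR-30b-5p, studied with miR-30d in melanoma invasion, had 4712 and 4467 CPM in HEK293T dsRBD deletion libraries, against 11960 and 10910 CPM with WT. HCT116 libraries held 3826 and 3458 CPM with the deletion, against 7106 and 6711 CPM with WT. Again no deletion library reached a WT library. The falls were 2.49-fold (log2 −1.32 ± 0.17, adjusted p = 4e-05) in HEK293T and 1.9-fold (log2 −0.92 ± 0.11, adjusted p = 4.1e-05) in HCT116.

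miR-30d-5p was the 5p member that did not fall on the TMM scale. It had 9059 and 8761 CPM in HEK293T dsRBD deletion libraries, against 8919 and 9205 CPM with WT, and the groups overlapped (log2 −0.02 ± 0.16, adjusted p = 0.91). It was called in opposite directions by other scalings, at 0.41 under upper-quartile scaling (adjusted p = 0.039) and at −1.48 on the spike-in scale (adjusted p = 8.5e-05). In HCT116 it had 12330 and 10050 CPM with the deletion, against 6952 and 6685 CPM with WT. Both deletion libraries were above both WT libraries, a 1.64-fold rise on the TMM scale (log2 0.71 ± 0.12, adjusted p = 0.00051) that turned to −1.09 on the spike-in scale (adjusted p = 0.00014). The line difference of −0.44 ± 0.25 did not pass with TMM (adjusted p = 0.19). It passed with DESeq2 size factors (−0.72, adjusted p = 0.0062), library totals (−1.14, 1e-04) and upper-quartile scaling (−0.75, 0.01). It also passed without the filter on low counts (−0.76, 0.022) and by DESeq2's Wald test (−0.72, 0.0015).

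miR-30e-5p had 12210 and 12830 CPM in HEK293T dsRBD deletion libraries, against 14650 and 14840 CPM with WT. The groups did not overlap, but the difference did not pass (log2 −0.24 ± 0.16, adjusted p = 0.2). It was called lower on the spike-in scale (−1.69, adjusted p = 2.1e-05) and without the filter on low counts (−0.56, adjusted p = 0.037), and was 0.2 under upper-quartile scaling. In HCT116 it had 8217 and 7433 CPM with the deletion, against 9858 and 10730 CPM with WT, and fell 1.32-fold (log2 −0.40 ± 0.11, adjusted p = 0.01). That call ended with WT replicate 2 left out (log2 −0.32, adjusted p = 0.084) and under upper-quartile scaling (−0.1, adjusted p = 0.49), and with library totals alone the value turned to 0.13. Its sequence differs from that of miR-30a-5p by the single C13U change, yet miR-30a-5p reads per miR-30e-5p read were 0.0797 and 0.0764 in HEK293T dsRBD deletion libraries, against 0.686 and 0.921 in WT libraries. In HCT116 the same ratio was 0.257 and 0.245 with the deletion and 0.391 and 0.388 with WT.

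**Figure D1:**
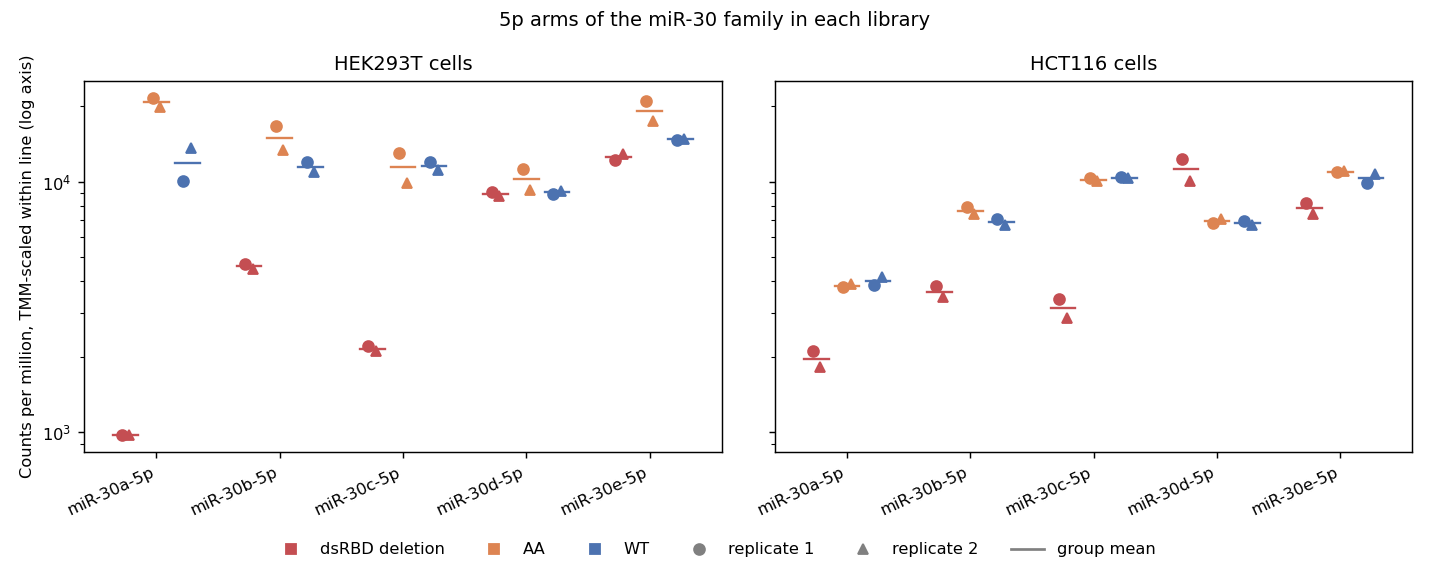
Level of each 5p arm in every library, in TMM-scaled CPM on a log axis, with HEK293T on the left, HCT116 on the right and a bar at each group mean of 2 libraries. miR-30a-5p sits at 974 and 980 CPM in HEK293T dsRBD deletion libraries, against 10050 and 13660 CPM in WT libraries, while miR-30d-5p overlaps between these groups and is higher with the deletion in HCT116 on this scale but lower on the spike-in scale.

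The 3p passenger arms behaved differently in the 2 lines on the TMM scale. In HCT116 all 5 3p members rose, and in HEK293T miR-30b-3p and miR-30d-3p rose and the other 3 fell. On the spike-in scale none was called higher in either line. miR-30d-3p had 248 and 244 CPM in HEK293T dsRBD deletion libraries, against 63.8 and 58.5 CPM with WT. The HCT116 libraries had 503 and 518 CPM with the deletion, against 153 and 141.2 CPM with WT. The deletion libraries were far above the WT libraries in both lines, by 4.03-fold in HEK293T (log2 2.01 ± 0.20, adjusted p = 5.4e-06) and 3.47-fold in HCT116 (log2 1.79 ± 0.14, adjusted p = 1.2e-06), and on the spike-in scale neither rise passed (log2 0.56, adjusted p = 0.081, and 0.01, adjusted p = 0.97).

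miR-30b-3p had 108 and 118 CPM in HEK293T dsRBD deletion libraries, against 56.7 and 66.1 CPM with WT (log2 0.88 ± 0.25, adjusted p = 0.0075). It had 69.2 and 73.0 CPM in HCT116 dsRBD deletion libraries, against 38.0 and 36.4 CPM with WT (log2 0.94 ± 0.17, adjusted p = 0.00081). Both groups stood apart in each line. On the spike-in scale both values turned, to −0.58 in HEK293T and −0.84 in HCT116, and the HEK293T call also ended without WT replicate 1 (log2 0.74, adjusted p = 0.056) or dsRBD deletion replicate 2 (log2 0.75, adjusted p = 0.057), and without the filter on low counts (log2 0.55, adjusted p = 0.12).

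miR-30a-3p had 344 and 377 CPM in HEK293T dsRBD deletion libraries, against 786 and 1217 CPM with WT, a 2.78-fold fall (log2 −1.47 ± 0.22, adjusted p = 1e-04). HCT116 had 402 and 380 CPM with the deletion, against 289 and 298 CPM with WT, a 1.33-fold rise (log2 0.41 ± 0.13, adjusted p = 0.021). The groups did not overlap in either line, in opposite directions on the TMM scale. The HCT116 rise did not pass without WT replicate 1 (log2 0.42, adjusted p = 0.097) or WT replicate 2 (log2 0.45, adjusted p = 0.072), without the filter on low counts (0.18, adjusted p = 0.59) or by DESeq2's Wald test (0.36, adjusted p = 0.055), and was −1.39 on the spike-in scale. The difference between the lines was −1.60 ± 0.31 (log2, HEK293T minus HCT116, adjusted p = 0.00022).

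miR-30e-3p, known in glioma for repressing NFKBIA, had 1023 and 1052 CPM in HEK293T dsRBD deletion libraries, against 1658 and 2560 CPM with WT (log2 −1.02 ± 0.21, adjusted p = 0.0011). In HCT116 it had 1206 and 1051 CPM with the deletion, against 813 and 808 CPM with WT (log2 0.48 ± 0.13, adjusted p = 0.0079), but without the filter on low counts it did not pass (0.24, adjusted p = 0.32) and on the spike-in scale it was −1.32. The line difference was −1.22 ± 0.30 (adjusted p = 0.0028). miR-30c-2-3p moved the same way at a far lower level. It had 22.9 and 17.6 CPM (26 and 23 reads) in HEK293T dsRBD deletion libraries, against 60.2 and 92.1 CPM with WT (log2 −1.92 ± 0.30, adjusted p = 0.00018). In HCT116 it had 33.0 and 29.6 CPM (32 and 51 reads) with the deletion, against 17.1 and 13.6 CPM with WT (log2 1.01 ± 0.24, adjusted p = 0.004, and −0.74 on the spike-in scale). Its line difference was −2.64 ± 0.44 (adjusted p = 4.9e-05). miR-30c-1-3p, no member but the 3p arm of the other miR-30c hairpin, had 21.2 and 19.1 CPM in HEK293T dsRBD deletion libraries, against 39.0 and 36.8 CPM with WT (log2 −0.91 ± 0.32, adjusted p = 0.022). In HCT116 it overlapped between the groups, with 33.0 and 46.4 CPM against 49.1 and 44.6 CPM (log2 −0.20 ± 0.20, adjusted p = 0.4).

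**Figure D2:**
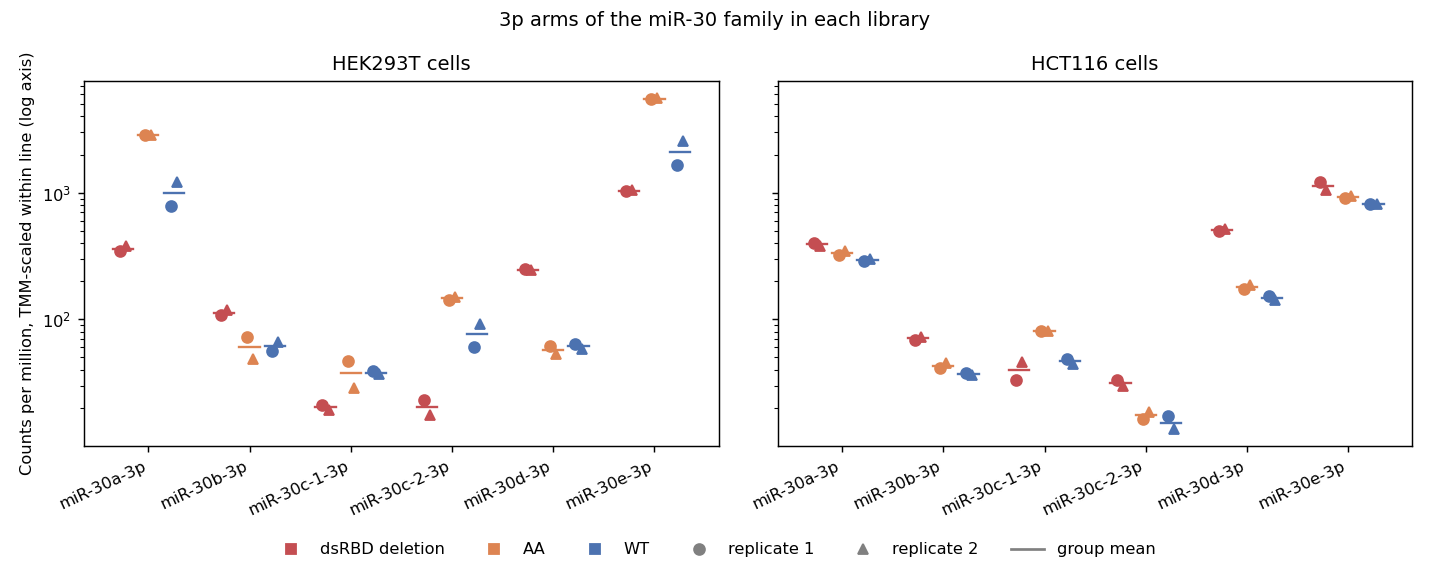
Level of each 3p arm in every library, in TMM-scaled CPM on a log axis, laid out as for the 5p arms and with the non-member miR-30c-1-3p included. With the dsRBD deletion miR-30d-3p reaches 248 and 244 CPM in HEK293T and 503 and 518 CPM in HCT116, against 63.8 and 58.5 CPM and 153 and 141.2 CPM with WT, whereas miR-30a-3p, miR-30e-3p and miR-30c-2-3p lie below WT in HEK293T and above it in HCT116 on this scale and below it there on the spike-in scale.

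The members have to be read against a widespread change. In HEK293T 75.6% of the 626 names tested were called with the dsRBD deletion, 35.9% higher and 39.6% lower, and 89% had groups that did not overlap. Of the 10 members there 2 were called higher and 6 lower, and 9 did not overlap. In HCT116 62.1% of 795 names were called, 28.1% higher and 34.1% lower, and 82.5% did not overlap, while 6 members were called higher and 4 lower, and none of the 10 overlapped. The median log2 change of the 5p members was −1.32 in HEK293T and −0.92 in HCT116, against −0.24 and 0.30 for all 5p names. That of the 3p members was −1.02 in HEK293T and 0.94 in HCT116, against −0.47 and −0.91 for all 3p names. The lines' difference in the deletion effect was called for 34.8% of 844 names, 22.4% higher and 12.4% lower in HEK293T, and for 4 of the 10 members, all lower. That background depends on the scaling. With library totals alone 93 names were higher and 197 lower, against 189 and 105 with TMM, and the median of all names was −0.4 in place of 0.34. The members called there numbered 7, all lower. With DESeq2 size factors 152 names were higher and 136 lower, and 6 members were called, all lower. It was also 6, all lower, with upper-quartile factors, without the filter on low counts and by DESeq2's Wald test. On either spike-in scale 4 members were called lower.

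TMM sets the bulk of names level, so a loss shared by most miRNAs does not show on it. Scaled by the spike-ins, the median of all names was −1.53 in HEK293T and −1.78 in HCT116 on the log2 scale for the dsRBD deletion. On that scale 8 members were called lower in HEK293T and 9 in HCT116, none higher, and miR-30a-5p was at −5.06 in HEK293T and −2.84 in HCT116. In HEK293T 17 of the 30 spike-ins differed among themselves between the deletion and WT libraries, with log2 changes of up to 1.63 in size about their median. In HCT116 0 of 30 did (edgeR, and 0 at an unadjusted p below 0.05), but their changes were still up to 1.19 in size. Values on that scale carry this spread in both lines. Summed over the 5 5p members, reads per spike-in read were 0.908 and 0.846 with the deletion in HEK293T, against 4.81 and 4.65 with WT. In HCT116 they were 2.23 and 2.11 with the deletion, against 9.23 and 11.6 with WT. The groups did not overlap in either line, but 2 libraries against 2 cannot give an exact permutation p below 0.333. All miRNA reads per spike-in read were 29.1 and 27.2 with the deletion in HEK293T, against 82.6 and 80.9 with WT. In HCT116 they were 63.7 and 64.7, against 274 and 367. As a share of all miRNA reads, the summed 5p members made 3.12% and 3.11% in HEK293T, against 5.82% and 5.75% with WT. In HCT116 the shares overlapped, at 3.51% and 3.27% against 3.37% and 3.16%.

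**Figure D3:**
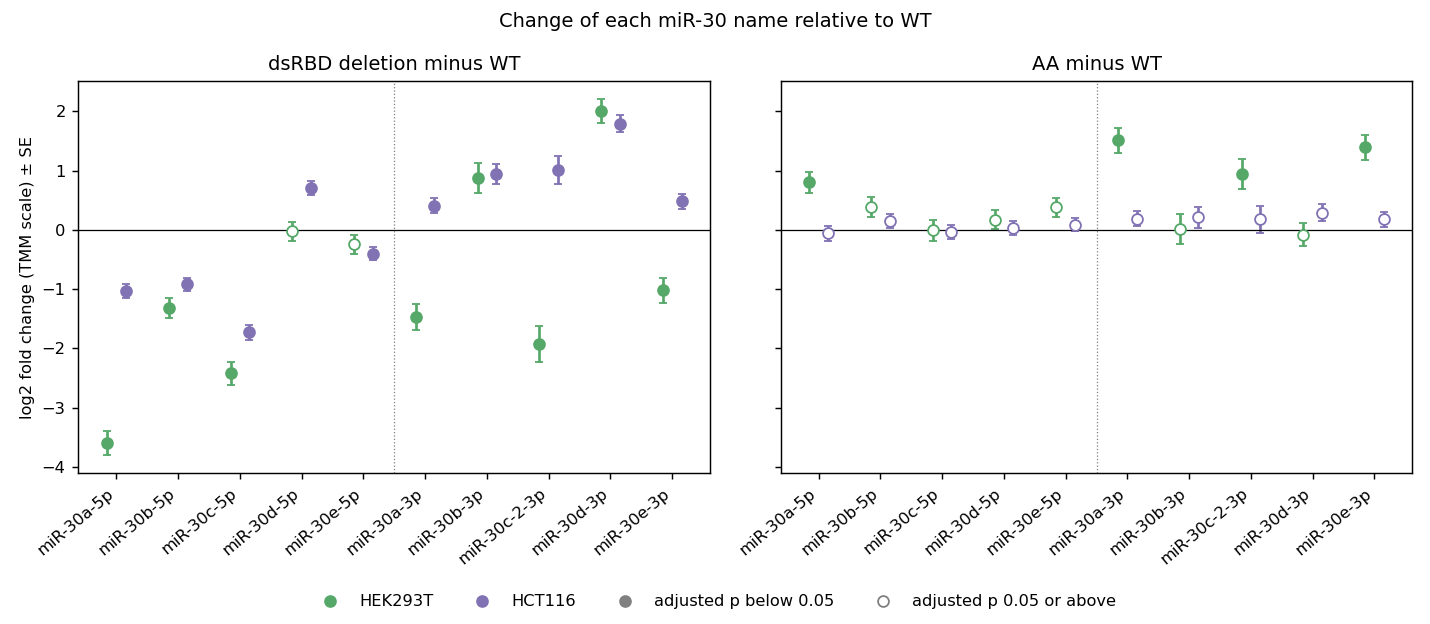
Log2 fold change of each member relative to WT on the TMM scale, with its SE, for the dsRBD deletion on the left and AA on the right, HEK293T and HCT116 in different colours and filled points where the adjusted p was below 0.05. With the deletion the points run between −3.60 (miR-30a-5p) and 2.01 (miR-30d-3p), both in HEK293T, and with AA every filled point is a HEK293T point above 0.

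The make-up of the family's guide strands also differed, a measure that no scaling between libraries touches. In HEK293T miR-30e-5p made 41.9% and 44% of the reads of the 5 5p members with the dsRBD deletion, against 25.4% and 24.9% with WT. miR-30d-5p made 31.1% and 30% with the deletion, against 15.5% and 15.4% with WT. miR-30a-5p made 3.34% and 3.36% with the deletion, against 17.5% and 22.9% with WT. None of these shares overlapped between the groups. In HCT116 miR-30d-5p made 41.3% and 39.2% with the deletion, against 18.2% and 17.3% with WT, and miR-30c-5p 11.3% and 11.2%, against 27.2% and 26.8%. miR-30e-5p, at 27.5% and 29% with the deletion, overlapped its WT shares of 25.8% and 27.8%. With the deletion in HCT116 miR-30d-5p led, followed without overlap by miR-30e-5p, miR-30b-5p, miR-30c-5p and miR-30a-5p. With WT miR-30c-5p and miR-30e-5p led and overlapped there, followed by miR-30b-5p and miR-30d-5p, which also overlapped, and miR-30a-5p came last. In HEK293T the order with the deletion was miR-30e-5p, miR-30d-5p, miR-30b-5p, miR-30c-5p and miR-30a-5p, none overlapping its neighbour, while with WT miR-30a-5p, miR-30c-5p and miR-30b-5p overlapped their neighbours between miR-30e-5p at the top and miR-30d-5p at the bottom.

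**Figure D4:**
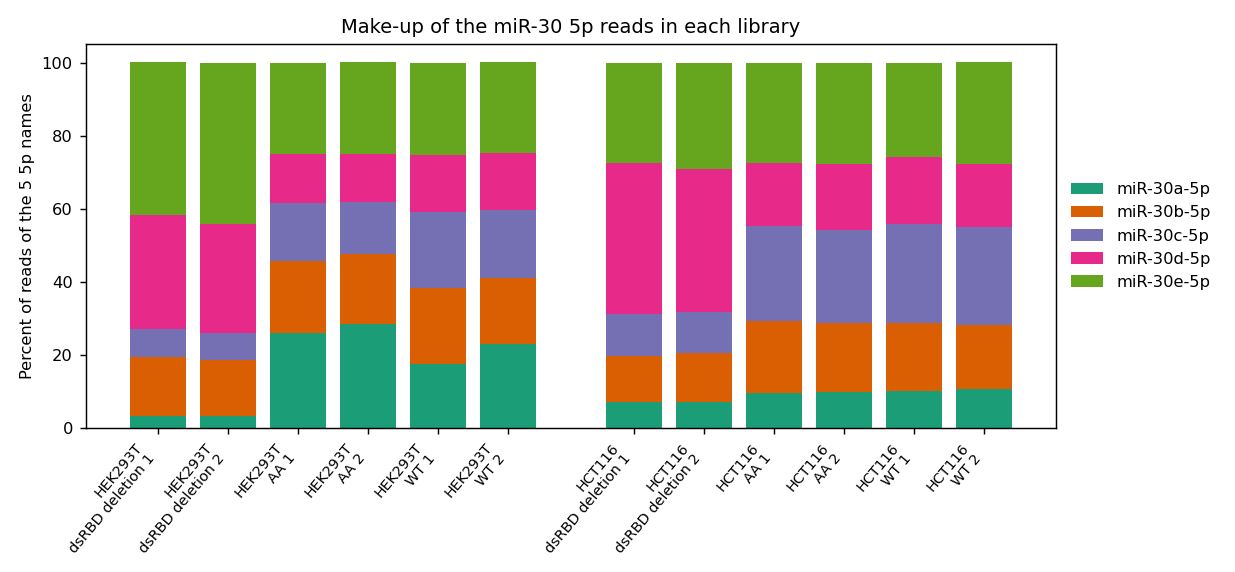
Share of the reads of the 5 5p members taken by each name, in percent, with 1 stacked bar per library and HEK293T left of HCT116. miR-30a-5p narrows to 3.34% and 3.36% in HEK293T dsRBD deletion libraries, against 17.5% and 22.9% in WT libraries, and miR-30d-5p widens to 41.3% and 39.2% in HCT116 dsRBD deletion libraries, against 18.2% and 17.3%.

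The ratio of 5p to 3p reads of a hairpin is also free of scaling between libraries. The ratio was tested per hairpin as the interaction of arm and group in edgeR with library as a block, over all hairpins with at least 10 reads of each arm in at least 2 libraries, and miR-30c-5p was set against the sum of its 2 3p names. The miR-30c value therefore pools MIR30C1 and MIR30C2 and is counted as 1 hairpin here, although their 3p arms were at −0.20 and 1.01 in HCT116 with the deletion on the TMM scale. With the dsRBD deletion all 5 miR-30 hairpins of HCT116 and 4 of 5 in HEK293T moved toward 3p. In HCT116 63.9% of 244 hairpins were called, 46.3% toward 5p and 17.6% toward 3p. In HEK293T 55.8% of 197 were called, 29.4% toward 5p and 26.4% toward 3p. The median change of the ratio was −2.03 for the miR-30 hairpins and 0.36 for all hairpins in HEK293T, and −1.44 and 0.83 in HCT116.

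For miR-30a the 3p arm made 26.1% (95% Wilson interval 24.0 to 28.4) and 27.8% (25.8 to 29.9) of the arm reads in HEK293T dsRBD deletion libraries, against 7.26% and 8.18% with WT. In HCT116 it made 16.0% and 17.2% with the deletion, against 6.97% and 6.69% with WT. The shares stood apart in both lines, and the 5p-to-3p ratio fell by 2.14 in HEK293T (log2, SE 0.22, adjusted p = 1.5e-07) and by 1.44 in HCT116 (SE 0.18, adjusted p = 1.2e-07). These intervals cover counting error only.

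For miR-30d, whose 5p arm did not fall on the TMM scale, the 3p share was 2.67% and 2.71% in HEK293T dsRBD deletion libraries, against 0.71% and 0.631% with WT (log2 ratio −2.03 ± 0.23, adjusted p = 5.4e-07). In HCT116 it was 3.92% and 4.91% with the deletion, against 2.16% and 2.07% with WT (−1.09 ± 0.18, adjusted p = 1.2e-05). For miR-30b it was 2.23% and 2.57% in HEK293T dsRBD deletion libraries, against 0.472% and 0.602% with WT (−2.19 ± 0.25, adjusted p = 4.8e-07). In HCT116 the miR-30b share was 1.78% and 2.07% with the deletion, against 0.532% and 0.54% with WT (−1.87 ± 0.20, adjusted p = 2e-08). In every one of these libraries the 5p arm still held most of the arm reads. For miR-30c the 3p share was 1.97% and 1.7% in HEK293T dsRBD deletion libraries, against 0.82% and 1.15% with WT (−0.92 ± 0.28, adjusted p = 0.0081, and 0.1 without dsRBD deletion replicate 1). In HCT116 it was 1.91% and 2.59% with the deletion, against 0.632% and 0.559% with WT (−1.95 ± 0.21, adjusted p = 1.4e-08).

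miR-30e was the hairpin whose arm use went opposite ways in the 2 lines. Its 3p arm made 7.73% and 7.57% of arm reads in HEK293T dsRBD deletion libraries, against 10.2% and 14.7% with WT, a move toward 5p (log2 0.75 ± 0.23, adjusted p = 0.008). It made 12.8% and 12.4% in HCT116 dsRBD deletion libraries, against 7.62% and 7.0% with WT, a move toward 3p (log2 −0.87 ± 0.17, adjusted p = 8.9e-05). The groups did not overlap in either line. The HEK293T move did not pass without WT replicate 2 (log2 0.45, adjusted p = 0.093), without dsRBD deletion replicate 2 (log2 0.74, adjusted p = 0.057) or with limma on log2 ratios (adjusted p = 0.075). The line difference, a comparison added after the data were seen, was 1.62 ± 0.29 toward 5p in HEK293T (adjusted p = 7.1e-05, 34.5% of 261 hairpins called, 8.81% toward 5p and 25.7% toward 3p), and those of miR-30c and miR-30d were 1.02 ± 0.35 (adjusted p = 0.024) and −0.95 ± 0.30 (adjusted p = 0.014). The miR-30c difference did not pass without HCT116 WT replicate 2 (adjusted p = 0.083), HCT116 dsRBD deletion replicate 2 (0.14), HEK293T WT replicate 2 (0.1) or HEK293T dsRBD deletion replicate 2 (0.12). The miR-30d difference did not pass without HCT116 dsRBD deletion replicate 1 (adjusted p = 0.059) or HEK293T dsRBD deletion replicate 2 (0.053).

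**Figure D5:**
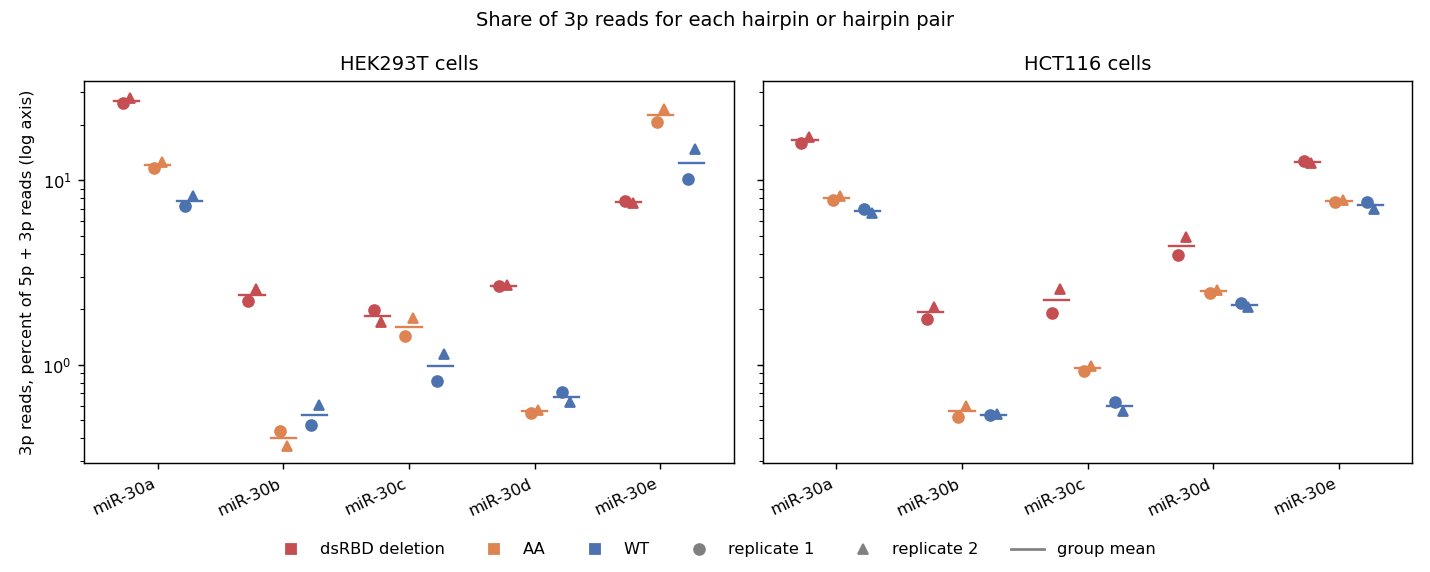
Reads of the 3p arm as a percent of 5p plus 3p reads for each hairpin, in every library on a log axis, with a bar at each group mean of 2 libraries. The dsRBD deletion libraries lie highest for all 5 hairpins in HCT116 and for miR-30a, miR-30b and miR-30d in HEK293T, where miR-30a reaches 26.1% and 27.8% against 7.26% and 8.18% with WT, and lowest for miR-30e in HEK293T at 7.73% and 7.57%.

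With the AA form, levels of the family were called changed in HEK293T and not in HCT116. In HEK293T 4 members were called higher on the TMM scale and none lower, where 21.4% of all names were called, 6.23% higher and 15.2% lower. With spike-in size factors 2 members were called higher and 0 lower, and scaled by the spike-in total 1 was higher and 2 were lower, miR-30c-5p (−0.71, adjusted p = 0.043) and miR-30d-3p (−0.8, adjusted p = 0.042). Under upper-quartile scaling 7 members were higher, but there the background turned too, with 129 of all names higher and 41 lower, against 39 and 95 with TMM. Of these 4, miR-30a-5p, miR-30a-3p and miR-30c-2-3p come from the chromosome 6 loci (miR-30a and miR-30c-2), and the other is miR-30e-3p. Groups did not overlap for 7 of the 10 members, against 59.6% of all names. In HCT116 edgeR called 0 members, with 0 at an unadjusted p below 0.05 and 0 by DESeq2, where 7.42% of all names were called, 1.26% higher and 6.16% lower. Member values lay between −0.06 and 0.29 there, and 6 of 10 did not overlap, against 53.8% of all names. The highest was miR-30d-3p, with 173 and 186 CPM in AA libraries, against 153 and 141.2 CPM with WT (log2 0.29 ± 0.14, adjusted p = 0.28). With spike-in size factors 1 member was called, miR-30a-5p at −0.67 (adjusted p = 0.04), where the median of all names was −0.63. Scaled by the spike-in total 0 were called, where that median was −0.46. In this comparison 0 of 30 spike-ins differed among themselves, though their log2 changes were up to 2.09 in size.

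miR-30e-3p had 5449 and 5637 CPM in HEK293T AA libraries, against 1658 and 2560 CPM with WT, and miR-30a-3p had 2836 and 2863 CPM, against 786 and 1217 CPM. All AA libraries were above all WT libraries, by 2.63-fold for miR-30e-3p (log2 1.39 ± 0.21, adjusted p = 0.001) and 2.84-fold for miR-30a-3p (log2 1.51 ± 0.21, adjusted p = 0.00076). With spike-in size factors both passed as well, at 0.91 (adjusted p = 0.017) and 1.02 (adjusted p = 0.0088), but scaled by the spike-in total miR-30e-3p did not (0.68, adjusted p = 0.052). Here 0 of 30 spike-ins differed among themselves and 7 did at an unadjusted p below 0.05, with log2 changes of up to 1.32 in size. Leaving out each library gave 1.16 to 1.74 for miR-30e-3p and 1.27 to 1.86 for miR-30a-3p. The 2 sequences differ by the single G18A change, and miR-30a-3p reads per miR-30e-3p read were 0.52 and 0.508 with AA and 0.474 and 0.476 with WT.

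miR-30a-5p had 21550 and 19790 CPM in HEK293T AA libraries, against 10050 and 13660 CPM with WT (log2 0.80 ± 0.18, adjusted p = 0.011, and 0.33 with adjusted p = 0.35 on the spike-in scale). miR-30c-2-3p had 141.9 and 151 CPM with AA, against 60.2 and 92.1 CPM with WT (log2 0.94 ± 0.25, adjusted p = 0.02, and 0.46 with adjusted p = 0.24 on the spike-in scale). Neither overlapped, and the miR-30c-2-3p call ended without WT replicate 1 (log2 0.71, adjusted p = 0.089), AA replicate 1 (log2 0.99, adjusted p = 0.08) or AA replicate 2 (log2 0.89, adjusted p = 0.096). The other 6 members had values between −0.08 and 0.39. Of these, miR-30b-5p and miR-30e-5p were called higher with DESeq2 size factors in edgeR (0.48, adjusted p = 0.045, and 0.47, adjusted p = 0.032). With spike-in size factors these 2 names were at −0.08 and −0.09 and did not pass. In HCT116 the non-member miR-30c-1-3p was called higher on the TMM scale, with 80.6 and 81.3 CPM in AA libraries, against 49.1 and 44.6 CPM with WT (log2 0.79 ± 0.18, adjusted p = 0.021), while miR-30c-2-3p overlapped at 16.4 and 18.5 CPM against 17.1 and 13.6 CPM.

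The AA effect differed between the lines for 3 members, where 3.91% of 844 names were called, 0.948% higher and 2.96% lower in HEK293T. These were miR-30a-3p (log2 1.40 ± 0.30, adjusted p = 0.0068), miR-30e-3p (1.3 ± 0.30, adjusted p = 0.011) and miR-30a-5p (0.96 ± 0.27, adjusted p = 0.045). The last did not pass in 6 of 8 fits that each left out 1 library, with values between 0.66 and 1.34, nor with replicate number as a block (0.99, adjusted p = 0.055), library totals (0.63, adjusted p = 0.055) or spike-in size factors (1, adjusted p = 0.18). Scaled by the spike-in total 0 of the 3 passed, with miR-30a-3p at 1.04 (adjusted p = 0.084), miR-30e-3p at 0.94 (0.13) and miR-30a-5p at 0.6 (0.36).

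Arm use with AA was called changed for miR-30a and miR-30e in HEK293T and for miR-30c in HCT116. The miR-30c call does not set HCT116 apart. In HEK293T miR-30c was at −0.72 ± 0.25, close to its HCT116 value, and did not pass (adjusted p = 0.078). Leaving out each library gave −0.97 to −0.48 there, and the line difference for miR-30c was −0.03 ± 0.33 (adjusted p = 0.98). The 3p share of miR-30e was 20.7% and 24.4% in HEK293T AA libraries, against 10.2% and 14.7% with WT (log2 ratio −1.05 ± 0.23, adjusted p = 0.0042), and that of miR-30a 11.6% and 12.6%, against 7.26% and 8.18% (−0.72 ± 0.21, adjusted p = 0.037). Both moved toward 3p without overlap, where 9.64% of hairpins were called, 4.57% toward 5p and 5.08% toward 3p. Without WT replicate 1 neither passed (adjusted p = 0.054 for miR-30e and 0.1 for miR-30a), without AA replicate 2 miR-30a did not (adjusted p = 0.11), and with limma neither did (adjusted p = 0.18 and 0.2). The miR-30c value pools 2 hairpins. Their 3p arms in HCT116 AA were at 0.79 for the non-member miR-30c-1-3p, which was called, and 0.18 for miR-30c-2-3p, which was not, on the TMM scale. In HCT116 miR-30c was called toward 3p, with 0.928% and 0.986% of 3p reads in AA libraries, against 0.632% and 0.559% with WT (−0.69 ± 0.19, adjusted p = 0.012), where 15.2% of hairpins were called, 8.61% toward 5p and 6.56% toward 3p. That call ended with any 1 of the 4 libraries left out (adjusted p = 0.053 without WT replicate 1, 0.13 without WT replicate 2, 0.12 without AA replicate 1 and 0.2 without AA replicate 2). The lines' difference in the AA effect on arm use, added after the data were seen, was called by edgeR for 0 of the 5 hairpins, with 1 at an unadjusted p below 0.05 (miR-30e, −0.96 ± 0.29, adjusted p = 0.093) and 0 by limma. Of 261 hairpins 0.766% were called, all toward 3p, and miR-30e passed without HEK293T WT replicate 2 (−1.26, adjusted p = 0.0056).

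Between the lines with WT DICER, 7 members were called higher and 1 lower in HEK293T on the TMM scale over 12 libraries (0 higher and 6 lower on the spike-in scale), where 73.2% of 844 names were called, 32% higher and 41.2% lower. None of the 10 members overlapped between the lines, nor did 87.3% of all names. The median of all names was −0.39 on that scale and −2.02 on the spike-in scale. miR-30c-2-3p had the largest TMM value (log2 2.27 ± 0.28, adjusted p = 1.3e-07), followed by miR-30a-3p (1.74 ± 0.22, adjusted p = 2.1e-07) and miR-30a-5p (1.53 ± 0.19, adjusted p = 2.9e-07), the 3 names of the chromosome 6 loci that the tables keep apart. miR-30d-3p was lower in HEK293T (log2 −1.33 ± 0.19, adjusted p = 1.2e-06), also on the spike-in scale, while miR-30d-5p did not pass (log2 0.36 ± 0.17, adjusted p = 0.066). miR-30d-5p was called higher with library totals (0.62, adjusted p = 0.00044), upper-quartile factors (0.79, 8.4e-05), DESeq2 size factors (0.36, 0.024) and DESeq2's Wald test (0.36, 0.016). At −1.3 it was lower on the spike-in scale. miR-30c-5p did not pass either (0.10 ± 0.17, adjusted p = 0.61). It was called higher with library totals (0.37, adjusted p = 0.027) and upper-quartile factors (0.54, 0.0043), and lower on the spike-in scale (−1.56, 1.4e-07). In arm use, a comparison added after the data were seen, the 3p share of miR-30d was 0.71% and 0.631% in HEK293T WT libraries, against 2.16% and 2.07% in HCT116 WT libraries (log2 ratio 1.68 ± 0.21 toward 5p, adjusted p = 1.8e-07, 43.3% of 261 hairpins called, 13.4% toward 5p and 29.9% toward 3p). miR-30e and miR-30c were called toward 3p in HEK293T (−0.83 ± 0.21, adjusted p = 0.0016, and −0.72 ± 0.23, adjusted p = 0.013), and neither passed without HEK293T WT replicate 2 (−0.52, adjusted p = 0.067, and −0.46, adjusted p = 0.17), nor did miR-30c without HCT116 WT replicate 2 (−0.63, adjusted p = 0.094). Among the levels, miR-30e-5p (log2 0.47 ± 0.16, adjusted p = 0.014) did not pass without HCT116 WT replicate 1 (adjusted p = 0.1) or HEK293T WT replicate 2 (0.079), and miR-30b-3p (0.68 ± 0.23, adjusted p = 0.012) not without HEK293T WT replicate 2 (0.14).

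Across the 12 libraries, with log2 CPM centred within each line, the members fell into groups that were not those of arm alone. Pearson's r was 0.974 between miR-30b-5p and miR-30c-5p and 0.913 and 0.904 between each of these and miR-30a-5p. miR-30a-3p and miR-30e-3p, which may share reads, had r = 0.992, and miR-30c-2-3p had r = 0.943 with miR-30a-3p and 0.934 with miR-30e-3p, whose hairpin lies on another chromosome. miR-30b-3p and miR-30d-3p had r = 0.954 with each other, and miR-30d-3p had r = −0.979 with miR-30c-5p. miR-30d-5p stood apart from the other 5p arms, with r between −0.477 and −0.145. All 12 points share the 6 groups and their scaling, and replicates of a group are not independent, so these values describe the libraries only. Of 183 names outside the family with a mean of at least 100 CPM in each line, those most like the summed 5p members were miR-423-3p (r = 0.966), miR-92b-3p (0.958) and miR-26a-5p (0.95). Those most like miR-30a-5p were the p53-induced miR-34a-5p (r = 0.982), miR-182-5p (0.978) and miR-93-5p (0.975). With the dsRBD deletion these last 3 had log2 changes of −3.07, −2.74 and −6.42 in HEK293T and −1.24, −0.34 and −1.54 in HCT116.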

How the data were processed

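The deposited values are raw counts of reads per miRNA name and per spike-in RNA, made by the authors. Cutadapt, BWA and bedtools and the builds hg38 and mm10 appear in the submitters' processing notes, without versions or roles. The sources used here name neither the miRNA annotation nor the treatment of reads that fit several names.

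Spike-ins stayed out of library sizes. After filterByExpr (minimum count 10), 795 names in HCT116 and 626 in HEK293T were scaled by TMM within a line. For comparisons of lines 844 names were scaled by TMM computed over all 12 libraries. All were fitted in edgeR 4.0.16 (R 4.3.3) as quasi-likelihood models of group means, over the 6 libraries of a line or over all 12. The F tests, two-sided, were adjusted by Benjamini and Hochberg's method over every name or hairpin. Each SE was obtained as |log2 change| over the root of F. limma 3.58.1 and DESeq2 1.42.0 served as alternatives, as did other scalings, no filter, each library left out, only the compared groups and a replicate block. Figures were drawn with matplotlib 3.10.9 (Python 3.11.15). Both tests were checked on simulated counts that held no loss shared by most names, so the check does not cover such a loss. A name at 0 could still be at up to 0.755 to 3.1 CPM (3 reads), by library.

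Replicate numbers were not used as pairs. The correlation of the replicate difference in dsRBD deletion or AA with that in WT was 0.147 and −0.104 in HCT116 and −0.0258 and −0.0675 in HEK293T. Positions come from RefSeq (GRCh38.p14) and introns from GENCODE v29. The names described were all 10 members, miR-30c-1-3p and the 3 names with the highest r to the summed 5p members and to miR-30a-5p. Members, lists and rules were chosen with earlier results of these data known. The muscle marker miR-206 was not analysed here.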

Additional observations from a re-analysis of the deposited data

Results flagged for a closer look

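The effect of the dsRBD deletion differed between the lines, by a test of the difference itself, for 4 members on the TMM scale (HEK293T minus HCT116, log2). These were miR-30a-5p (−2.29), miR-30a-3p (−1.6), miR-30c-2-3p (−2.64) and miR-30e-3p (−1.22). The change was in the same direction in both lines for miR-30a-5p, and in opposite directions for the 3 3p names on that scale. The AA effect differed for miR-30a-5p (0.96), miR-30a-3p (1.4) and miR-30e-3p (1.3) on the TMM scale, and for none of them scaled by the spike-in total. The change in arm use with the deletion differed for miR-30c (1.02), miR-30d (−0.95) and miR-30e (1.62), where a positive value is more toward 5p in HEK293T. In each of these comparisons the effects of HEK293T and HCT116 rest on their own WT libraries.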

How the results depend on the processing

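Of 1325 member values recomputed under an alternative, 1102 kept their direction and their side of the threshold, 78 lost a call, 38 gained one and 107 changed sign. Of these 107, 79 were called under neither setting, and the largest of them was 0.68 in size. The causes were not tested. DESeq2 size factors in edgeR changed the sign in the HCT116 AA comparison, to 0.01 for miR-30c-5p. DESeq2 size factors in edgeR changed the sign in the HEK293T AA comparison, to 0.07 for miR-30c-5p and 0 for miR-30d-3p. DESeq2 size factors in edgeR changed the sign in the line difference of the dsRBD deletion, to −0.05 for miR-30b-3p. DESeq2 size factors in edgeR changed the sign in the line difference of AA, to 0.02 for miR-30b-3p. Library totals alone changed the sign in the HCT116 dsRBD deletion comparison, to 0.13 for miR-30e-5p. Library totals alone changed the sign in the HEK293T dsRBD deletion comparison, to 0.09 for miR-30d-5p. Library totals alone changed the sign in the HCT116 AA comparison, to 0.12 for miR-30a-5p and 0.15 for miR-30c-5p. Library totals alone changed the sign in the HEK293T AA comparison, to −0.05 for miR-30b-3p. Library totals alone changed the sign in the line difference of the dsRBD deletion, to −0.25 for miR-30e-5p, −0.47 for miR-30b-3p and −0.2 for miR-30d-3p. Library totals alone changed the sign in the line difference of AA, to −0.22 for miR-30c-5p and −0.09 for miR-30d-5p. Upper-quartile factors changed the sign in the HEK293T dsRBD deletion comparison, to 0.41 for miR-30d-5p and 0.2 for miR-30e-5p. Upper-quartile factors changed the sign in the HCT116 AA comparison, to 0.08 for miR-30a-5p and 0.11 for miR-30c-5p. Upper-quartile factors changed the sign in the HEK293T AA comparison, to 0.44 for miR-30c-5p and 0.37 for miR-30d-3p. Upper-quartile factors changed the sign in the line difference of the dsRBD deletion, to −0.07 for miR-30b-3p. Spike-in size factors changed the sign in the HCT116 dsRBD deletion comparison, to −1.09 for miR-30d-5p, −1.39 for miR-30a-3p, −0.84 for miR-30b-3p, −0.74 for miR-30c-2-3p and −1.32 for miR-30e-3p. Spike-in size factors changed the sign in the HEK293T dsRBD deletion comparison, to −0.58 for miR-30b-3p. Spike-in size factors changed the sign in the HCT116 AA comparison, to −0.45 for miR-30b-5p, −0.57 for miR-30d-5p, −0.53 for miR-30e-5p, −0.41 for miR-30a-3p, −0.38 for miR-30b-3p, −0.39 for miR-30c-2-3p, −0.31 for miR-30d-3p and −0.42 for miR-30e-3p. Spike-in size factors changed the sign in the HEK293T AA comparison, to −0.08 for miR-30b-5p, −0.3 for miR-30d-5p, −0.09 for miR-30e-5p and −0.45 for miR-30b-3p. Spike-in size factors changed the sign in the WT lines comparison, to −0.16 for miR-30a-5p, −0.99 for miR-30b-5p, −1.56 for miR-30c-5p, −1.3 for miR-30d-5p, −1.21 for miR-30e-5p, −0.98 for miR-30b-3p and −0.34 for miR-30e-3p. The spike-in total changed the sign in the HCT116 dsRBD deletion comparison, to −1.08 for miR-30d-5p, −1.38 for miR-30a-3p, −0.83 for miR-30b-3p, −0.74 for miR-30c-2-3p and −1.31 for miR-30e-3p. The spike-in total changed the sign in the HEK293T dsRBD deletion comparison, to −0.55 for miR-30b-3p. The spike-in total changed the sign in the HCT116 AA comparison, to −0.29 for miR-30b-5p, −0.41 for miR-30d-5p, −0.36 for miR-30e-5p, −0.25 for miR-30a-3p, −0.22 for miR-30b-3p, −0.23 for miR-30c-2-3p, −0.15 for miR-30d-3p and −0.26 for miR-30e-3p. The spike-in total changed the sign in the HEK293T AA comparison, to −0.32 for miR-30b-5p, −0.54 for miR-30d-5p, −0.33 for miR-30e-5p and −0.68 for miR-30b-3p. The spike-in total changed the sign in the WT lines comparison, to −0.2 for miR-30a-5p, −1.01 for miR-30b-5p, −1.59 for miR-30c-5p, −1.34 for miR-30d-5p, −1.24 for miR-30e-5p, −1.02 for miR-30b-3p and −0.38 for miR-30e-3p. The spike-in total changed the sign in the line difference of AA, to −0.03 for miR-30b-5p, −0.25 for miR-30c-5p and −0.13 for miR-30d-5p. DESeq2's Wald test changed the sign in the HCT116 AA comparison, to 0.01 for miR-30c-5p. DESeq2's Wald test changed the sign in the HEK293T AA comparison, to 0.07 for miR-30c-5p and 0 for miR-30d-3p. DESeq2's Wald test changed the sign in the line difference of the dsRBD deletion, to −0.05 for miR-30b-3p. DESeq2's Wald test changed the sign in the line difference of AA, to 0.02 for miR-30b-3p. No filter on low counts changed the sign in the HEK293T AA comparison, to −0.1 for miR-30b-3p. No filter on low counts changed the sign in the line difference of the dsRBD deletion, to −0.09 for miR-30b-3p. A fit of the compared groups alone changed the sign in the HEK293T AA comparison, to 0.11 for miR-30c-5p and 0.04 for miR-30d-3p. Limma with a replicate block changed the sign in the WT lines comparison, to −0.02 for miR-30b. The number of members called with library totals only was 7 names for the line difference of the dsRBD deletion in place of 4. With upper-quartile factors, members called numbered 7 names for HEK293T AA in place of 4, and with DESeq2 size factors in edgeR 6. The number of members called with spike-in size factors was 1 name for HCT116 AA in place of 0 and 2 names for HEK293T AA in place of 4. With the spike-in total, members called numbered 0 names for the line difference of AA in place of 3. The number of members called with no filter on low counts was 0 hairpins for HCT116 AA in place of 1. With only the compared groups, members called numbered 1 hairpin for HEK293T AA in place of 2. The number of members called with limma on arm ratios was 0 hairpins for HCT116 AA in place of 1 and 0 hairpins for HEK293T AA in place of 2. Under limma with a replicate block, members called numbered 0 hairpins for HCT116 AA in place of 1, 0 hairpins for HEK293T AA in place of 2, 1 hairpin for the line difference of the dsRBD deletion in place of 3 and 1 hairpin for WT lines in place of 3. The log2 ratio of the summed 5p level to WT, with no test, became 0.05 in HCT116 dsRBD deletion with library totals only, −2.27 in HCT116 dsRBD deletion with spike-in size factors, 0.22 in HCT116 AA with library totals only, −0.56 in HCT116 AA with spike-in size factors, −0.9 in HEK293T dsRBD deletion with library totals only, −2.46 in HEK293T dsRBD deletion with spike-in size factors and −0.08 in HEK293T AA with spike-in size factors. Leaving out each library in turn, the number of hairpins called for arm use ranged over 0 to 1 for the line difference of AA, 1 to 3 for the line difference of the dsRBD deletion, 0 to 0 (no call in any of the 4 fits) for HCT116 AA, 0 to 3 for HEK293T AA and 1 to 3 for WT lines. The HCT116 AA level then ranged over −0.1 to 0.04 for miR-30a-5p, −0.02 to 0.03 for miR-30c-5p and −0.01 to 0.14 for miR-30d-5p. The HCT116 AA arm use then ranged over −0.16 to 0.05 for miR-30b. The HEK293T AA level then ranged over −0.33 to 0.25 for miR-30b-3p, −0.22 to 0.18 for miR-30c-5p and −0.2 to 0.02 for miR-30d-3p. The WT lines arm use then ranged over −0.17 to 0.19 for miR-30b. For level, the line difference of the dsRBD deletion then ranged over −0.22 to 0.03 for miR-30b-5p. For level, the line difference of AA then ranged over −0.42 to 0.16 for miR-30b-3p and −0.07 to 0.23 for miR-30c-5p. For arm use, the line difference of AA then ranged over −0.28 to 0.21 for miR-30c. The replicate block in edgeR ended the calls of miR-30e-5p between WT lines (0.45, adjusted p = 0.055) and of miR-30a-5p in the line difference of AA (0.99, adjusted p = 0.055) and changed no other level call of a member, and crossing the block in HCT116 AA, added after the data were seen, called 0 members. With 2 libraries a group, changes of miR-30c-2-3p rest on few reads, as low as 23 in 1 library.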
